A study of Mus musculus with 4 samples.

Results

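The cholesterol synthesis genes described here are 8 mouse genes chosen by name: Hmgcs1, Mvd, Idi1, Fdps, Fdft1, Sqle, Cyp51 and Insig1. The first 7 encode enzymes of the pathway and Insig1 encodes a regulator of it; none of the 8 is an uptake receptor. They are represented by 20 of the 45101 probe sets of an Affymetrix array, by platform symbol, and by 8 of its 18194 named genes. Total RNA of 4 cultures of mouse embryonic stem (ES) cells was measured on 1 array per culture. The groups were 2 lines homozygous for a BAF250 knock-out, named ko1 and ko2 (replicates 1 and 2), 1 heterozygous line, and 1 wild type line. BAF250 is an ARID-domain subunit of the SWI/SNF chromatin remodelling complex. The labels do not say how the alleles were made, which BAF250 gene was altered or whether any culture was repeated. All 4 lines were grown on gelatin without feeder cells, in medium with fetal bovine serum and a factor that the labels call leukocyte inhibitory factor.

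Cells make cholesterol from acetyl-CoA by way of mevalonate, the isoprenoid diphosphates, squalene and lanosterol. The genes of most steps are activated together by SREBP2, a transcription factor that is held in the endoplasmic reticulum with its escort SCAP while sterols are plentiful, by INSIG proteins, and is released when sterols run low. Serum carries lipoprotein cholesterol, which cells take up and which keeps this activation down.

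The values are MAS5 signals, in arbitrary units on a linear scale, and were analysed as log2(signal + 0.675). Precision is limited by the number of arrays. The spread between ko1 and ko2, largely pooled over genes of like signal, stands in for that of the lone heterozygous and wild type cultures. The wild type array was brighter, with a median signal of 4.01, against 2.70 in ko1, 2.61 in ko2 and 2.74 in heterozygous cells, so the median gene of the 13730 tested stood at a log2 difference of -0.75 in homozygous against wild type cells, of -0.03 against heterozygous cells, and of -0.68 between heterozygous and wild type cells. Differences are given relative to that median gene unless they are called deposited, while p-values test the deposited difference. Background, taken as the brightest of 27 control probe sets for bacterial transcripts that were not spiked in, was 5.55 in ko1, 3.82 in ko2, 6.92 for the heterozygous line and 7.57 for wild type. The ratio of the actin control at its 3′ end to its 5′ end, a sign of RNA quality, was 5.01, 2.61, 2.86 and 1.30 in the same order. Arid1a (BAF250a) read 7.03 in ko1, 3.57 in ko2, 50.4 in the heterozygous line and 109 in wild type on its brighter probe set. The second probe set read 17.3, 1.06, 24.1 and 42.9, and the probe set of Arid1b (BAF250b) was below background on every array. Of 12 extraembryonic endoderm markers, 12 were brighter in both homozygous lines than in either other line: their summed signal was 6994 and 3877 in ko1 and ko2, against 111 in heterozygous and 152 in wild type cells, where 8 and 7 of them were at background. The summed signal of 10 pluripotency markers was 771 and 884, against 1985 and 3408, and each was above background on all arrays. Of 8 fibroblast markers, 5 (ko1), 4 (ko2), 8 (heterozygous) and 6 (wild type) were at background. These cell states moved with the homozygous genotype, and their part in the values of the cholesterol genes was not tested.

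Hmgcs1 (chromosome 13) encodes cytosolic HMG-CoA synthase, which makes the substrate of mevalonate synthesis. Its brightest probe set, 1433443_a_at, read 46.5 in ko1, 61.7 in ko2, 120 for the heterozygous line and 70.3 for wild type. Both homozygous lines were therefore dimmer than either other array, and the heterozygous array was the brightest. Of its 3 further probe sets that passed the filter on dim signal, 1433444_at read 11.1 and 8.29 in ko1 and ko2, 15.3 in heterozygous and 15.6 in wild type cells. The other two read 12.7 and 7.74, with 18.3 and 10.5, and 6.32 and 5.20, with 16.6 and 15.0, in that order of groups. Heterozygous cells exceeded both homozygous lines on all 4 of these probe sets, whereas wild type cells did so on 3 of them.

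The promoter windows of 3 of the genes are shown. Hmgcs1 was taken because its window holds a match to a sterol regulatory element. Idi1 and Insig1 were taken because they had the lowest and the highest difference of homozygous from wild type cells. Their windows hold no match to that element. Each of the 3 windows runs 5′ to 3′ on the strand of the gene, from 250 bases before its annotated start, and comes from RefSeq (GRCm38.p6). Capitals mark matches to TCACNCCAC, a sterol regulatory element consensus, and to CCAAT, the NF-Y box, searched on both strands (ATTGG is the NF-Y box on the other strand).
Hmgcs1, chr13:119690101-119690400, plus strand: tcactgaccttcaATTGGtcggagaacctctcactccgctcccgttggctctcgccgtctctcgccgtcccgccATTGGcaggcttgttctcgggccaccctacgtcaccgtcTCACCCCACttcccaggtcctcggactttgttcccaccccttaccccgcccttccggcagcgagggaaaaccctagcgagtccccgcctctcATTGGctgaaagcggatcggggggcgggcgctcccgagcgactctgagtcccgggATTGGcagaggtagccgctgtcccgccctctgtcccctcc
Idi1, chr13:8885356-8885655, plus strand: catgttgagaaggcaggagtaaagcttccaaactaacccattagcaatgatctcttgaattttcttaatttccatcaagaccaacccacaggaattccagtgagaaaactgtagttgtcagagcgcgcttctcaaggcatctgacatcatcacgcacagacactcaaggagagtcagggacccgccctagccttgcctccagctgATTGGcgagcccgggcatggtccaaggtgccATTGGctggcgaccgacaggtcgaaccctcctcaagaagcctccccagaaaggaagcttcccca
Insig1, chr5:28071162-28071461, plus strand: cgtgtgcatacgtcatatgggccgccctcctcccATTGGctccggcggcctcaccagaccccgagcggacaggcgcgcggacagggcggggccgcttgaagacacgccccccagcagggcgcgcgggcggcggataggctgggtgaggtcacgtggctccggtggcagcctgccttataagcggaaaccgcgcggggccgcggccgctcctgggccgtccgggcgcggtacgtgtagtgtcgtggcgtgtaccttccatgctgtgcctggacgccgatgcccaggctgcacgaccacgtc

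The Hmgcs1 window has 1 sterol regulatory element match, TCACCCCAC, from 137 to 129 bases before the start, and 4 NF-Y boxes. The Idi1 window has 2 NF-Y boxes and the Insig1 window 1. Windows were at hand for 5 of the 8 genes, Hmgcs1, Mvd, Idi1, Cyp51 and Insig1, and those for Fdps, Fdft1 and Sqle were not used here. The sterol element was found in 1 of these 5, against 1.24% of all 32851 windows of the same length. Matches to the NF-Y box were in 5 of 5, against 37.4% of all windows, and those to GGGCGG, the GC box bound by SP1, in 5 of 5, against 35.7%; the GC box was searched on both strands and is not capitalised. The sterol element and these boxes do not overlap in the 5 windows. A match describes letters only, and no binding was measured.

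**Figure D1:**
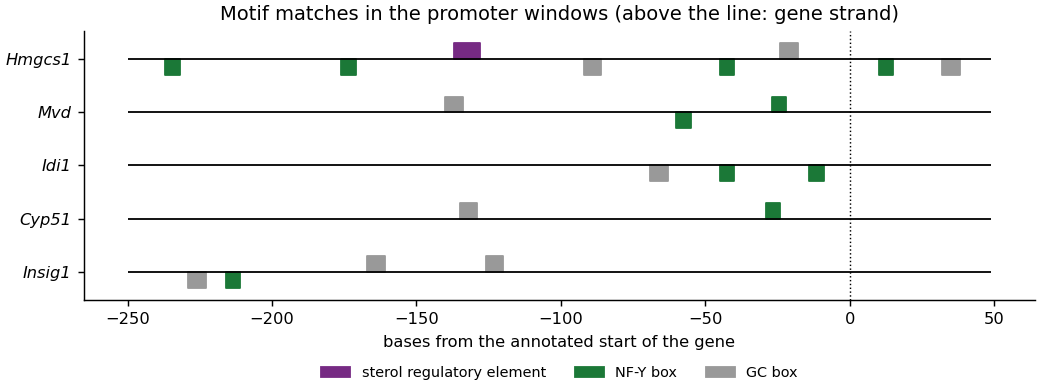
Matches to 3 motifs in the promoter windows of 5 genes, by distance in bases from the annotated start of the gene (dotted line); boxes above a line lie on the strand of the gene and boxes below it on the other. The sterol regulatory element appears in the Hmgcs1 window, and NF-Y and GC boxes appear in all 5.

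Mvd (chromosome 8) encodes mevalonate diphosphate decarboxylase, which yields isopentenyl diphosphate. Its brighter probe set, 1448663_s_at, read 16.3 and 15.6 in ko1 and ko2, 13.3 in heterozygous and 10.4 in wild type cells, so both homozygous lines were brighter than the other arrays. Its second probe set, 1417303_at, gave another order, with 7.52 and 9.73 in ko1 and ko2, 1.56 in heterozygous and 24.1 in wild type cells. The heterozygous value lay below background there, and wild type was the brightest. The direction of Mvd thus depended on the probe set.

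Idi1 (chromosome 13) encodes the isomerase that converts isopentenyl to dimethylallyl diphosphate. On 1451122_at it read 6.99 in ko1, 6.15 in ko2, 16.5 for the heterozygous line and 18.9 for wild type. The homozygous lines lay close together and below both other arrays, all above background. Its other probe set, 1423804_a_at, was below background on all 4 arrays.

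Fdps (chromosome 3) encodes farnesyl diphosphate synthase, whose product is shared by sterols and prenylated proteins. It read 44.9 and 41.3 in ko1 and ko2, 64.3 in heterozygous and 49.1 in wild type cells. Both homozygous lines were dimmer than the other arrays, although the gap between ko1 and wild type was about as small as that between the homozygous lines. Relative to the median gene of each array, ko1 (2.75) and ko2 (2.73) lay between wild type (2.37) and heterozygous cells (3.36) on the log2 scale. A second probe set was below background throughout.

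Fdft1 (chromosome 14) encodes squalene synthase, the first enzyme committed to sterols. Its brightest probe set, 1438322_x_at, read 34.9 and 22.8 in ko1 and ko2, 21.8 in heterozygous and 32.0 in wild type cells, so the homozygous lines spanned the wild type value. On 1448130_at it read 11.3 and 10.5, 23.2 in heterozygous and 16.5 in wild type cells, with both homozygous lines below the others. The dimmer 1438918_at and 1438919_x_at, above background on 2 arrays each, were brightest in wild type cells, at 18.2 and 12.1. An x in the name of a probe set marks probes that may also bind other sequences, and an s marks probes shared between transcripts.

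Sqle (chromosome 15) encodes squalene epoxidase, a rate-limiting enzyme of the later pathway. Its only probe set, 1415993_at, read 6.46 in ko1, 8.64 in ko2, 26.4 for the heterozygous line and 17.5 for wild type. All 4 values were above background, and both homozygous lines lay below the other arrays.

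Cyp51 (chromosome 5) encodes lanosterol demethylase, which acts on the first sterol of the pathway. On 1450646_at it read 6.33 and 8.47 in ko1 and ko2, 14.2 in heterozygous and 8.99 in wild type cells. The ko2 and wild type values were close to each other, and the other 2 probe sets of the gene were below background on every array.

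Insig1 (chromosome 5) encodes the endoplasmic reticulum protein that retains SCAP and is itself a target of SREBP2. Its only probe set, 1454671_at, read 10.0 in ko1, 19.9 in ko2, 14.2 for the heterozygous line and 7.03 for wild type. The wild type value lay just below background, and the homozygous lines lay on either side of the heterozygous value. Relative to the median gene of each array, ko1 and ko2 were 1.05 apart on the log2 scale for Insig1, against a median distance of 0.48 over the 8 genes and of 0.73 over all tested genes.

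**Figure D2:**
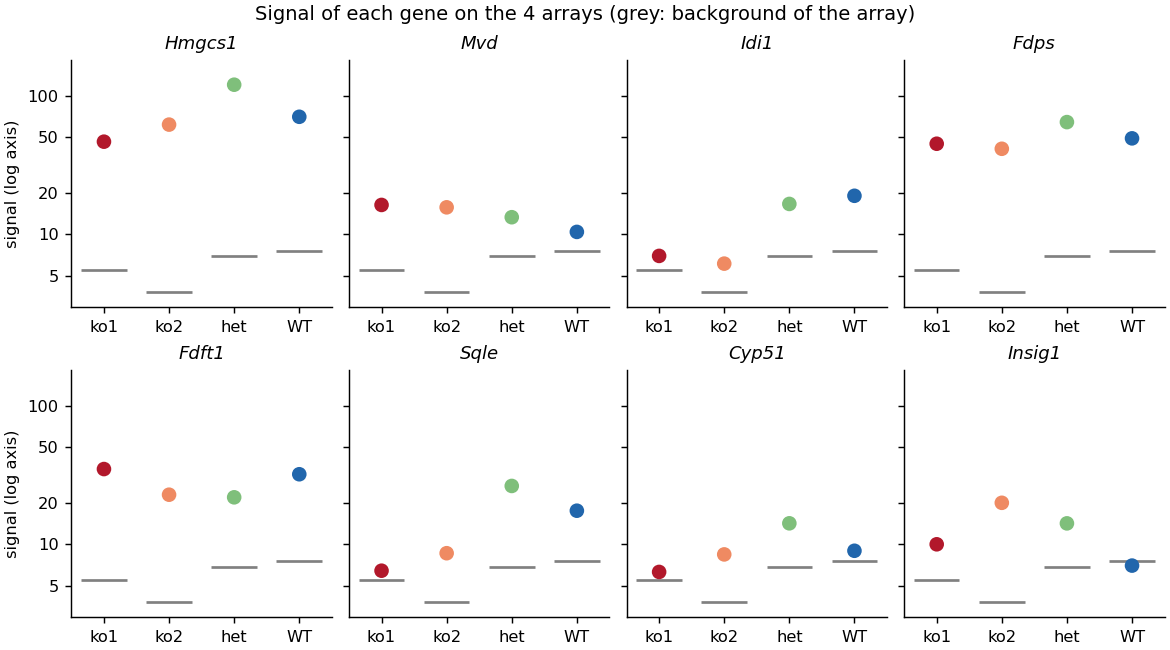
Deposited signal (log axis, arbitrary units) of the brightest probe set of each gene in ko1, ko2, heterozygous (het) and wild type (WT) cells, 1 point per array; grey bars are the background of each array. Idi1 and Sqle read 6.15 to 8.64 in the homozygous lines, below 16.5 to 26.4 in the other 2, while Insig1 in wild type cells was at background.

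As deposited, 5 of the 8 genes (Hmgcs1, Idi1, Fdps, Sqle and Cyp51) were dimmer in both homozygous lines than in the heterozygous and wild type arrays, against 26.9% of all tested genes, and 1, Mvd, was brighter in both, against 11% of all. Relative to the median gene of each array, 2 stayed lower in both (Idi1 and Sqle), against 21.4%, and 2 were higher in both (Mvd and Fdft1), against 18.1%. Hmgcs1, Fdps and Cyp51 thus no longer lay below both other arrays in both homozygous lines once the level of each array was taken out.

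Homozygous cells were set against wild type cells to ask which transcripts change with the loss of both BAF250 copies. By limma's moderated test, 0 of the 8 genes rose and 0 fell at an adjusted p of 0.05, where 0.401% of all tested genes rose and 0.619% fell (1.02% in all), and 0 passed an unadjusted p of 0.05, which 11.9% of all genes did. Insig1 stood at 1.69 ± 0.71 on the log2 scale (SE; 95% interval 0.26 to 3.12, not adjusted; adjusted p = 0.551). Its homozygous signal was at least 3.13-fold the wild type background relative to the median gene, and at least 1.87-fold as deposited. Without ko2 these bounds were 1.98 and 1.32, and the difference was 1.05. Mvd stood at 1.33 ± 0.67 (-0.01 to 2.67; adjusted p = 0.683) on its brighter probe set. Idi1 was at -0.69 ± 0.73 (-2.16 to 0.77), with the smallest adjusted p of the 8, 0.428, and Sqle at -0.41 ± 0.69 (-1.79 to 0.97; adjusted p = 0.473). Fdft1 (0.57 ± 0.57), Fdps (0.56 ± 0.53), Cyp51 (0.47 ± 0.78) and Hmgcs1 (0.36 ± 0.54) lay between, with adjusted p from 0.737 to 0.886. Centring the arrays on the genes above background on all of them was an alternative chosen after seeing the data. With it 2 of the 8, Insig1 and Mvd, passed an unadjusted p of 0.05, where 7.11% of all genes did, and 0 were called. After median centring 1 passed, Insig1, where 6.97% of all genes did. After quantile normalization 0 passed, where 6.24% did.

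Relative to the median gene, 6 of the 8 were above 0 and 2 below, with a median of 0.52. The deposited differences had 2 above 0 and 6 below, with a median of -0.23, so the scaling of the arrays set the direction for Hmgcs1, Fdps, Fdft1 and Cyp51. After quantile normalization, 6 were above 0 and 2 below. The genes called in this comparison had a median absolute difference of 2.46 and none was below 1.27, while the half-widths of the intervals of the 8 genes ran from 1.07 to 1.57. A 2-fold difference could thus not be told from none for any of the 8 genes with these 4 arrays.

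**Figure D3:**
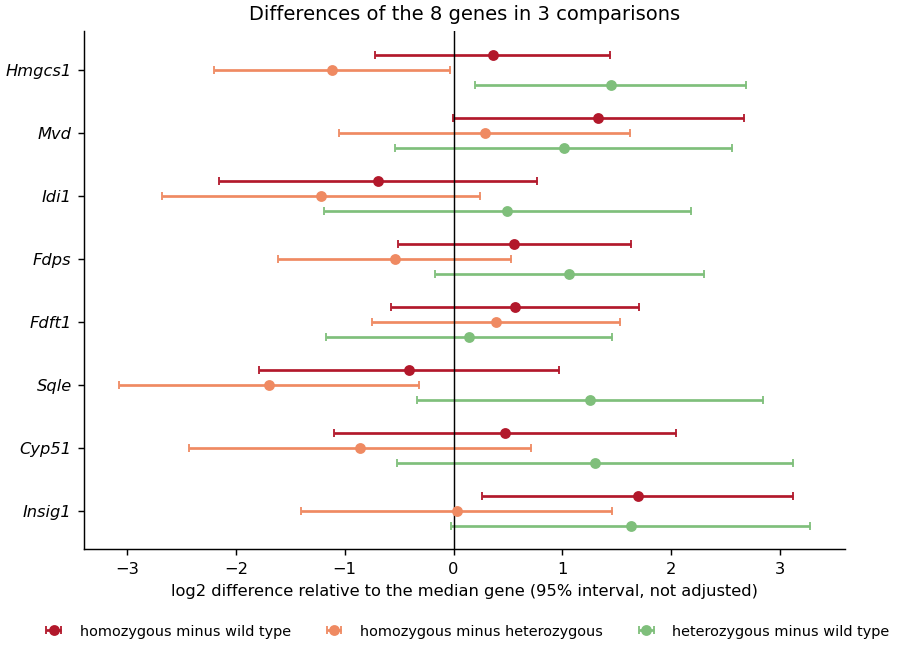
Log2 difference relative to the median gene (points) with its 95% interval (bars, from limma, not adjusted for the number of genes) for the 8 genes in 3 comparisons. The interval leaves out 0 for Insig1 in homozygous minus wild type (0.26 to 3.12) and Hmgcs1 in heterozygous minus wild type (0.20 to 2.69). It also does so for Hmgcs1 (-2.20 to -0.04) and Sqle (-3.08 to -0.32) in homozygous minus heterozygous, and in no other case. No adjusted p passed 0.05, but the p-values test the deposited difference and not the one plotted.

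Homozygous and heterozygous cells had nearly the same array level, and the scaling hardly moved the differences of the 8 genes, although the number of all genes called depended on it. Again 0 of the 8 genes rose and 0 fell, where 0.699% and 0.0583% of all tested genes did (0.757% in all); at an unadjusted p of 0.05, 2 passed, Sqle and Hmgcs1, where 6.88% of all genes did. Sqle was at -1.70 ± 0.69 (-3.08 to -0.32; adjusted p = 0.486), a signal of 6.46 and 8.64 in the homozygous lines against 26.4 in heterozygous cells. Idi1 stood at -1.22 ± 0.73 (-2.68 to 0.24; adjusted p = 0.795) and Hmgcs1 at -1.12 ± 0.54 (-2.20 to -0.04; adjusted p = 0.67). Cyp51 (-0.86 ± 0.78) and Fdps (-0.54 ± 0.53) were also below 0. Insig1 (0.03 ± 0.71), Mvd (0.29 ± 0.67) and Fdft1 (0.39 ± 0.57) were not, and the second Fdft1 probe set, 1448130_at, was at -0.99 ± 0.64. The median of the 8 was -0.70. These values rest on 1 heterozygous array, the smallest difference among genes called in this comparison was 2.15, and the comparison shares the homozygous arrays with the one above.

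Heterozygous minus wild type cells, 1 array against 1 with the spread borrowed from the homozygous lines, asks about the loss of 1 copy. All 8 genes lay above the median gene, as 46.8% of all tested genes did when each array was set relative to its own median gene; on that scale the heterozygous array was the highest of the 4 for 5 genes (Hmgcs1, Idi1, Fdps, Sqle and Cyp51), against 23.8% of all. The differences were 1.63 ± 0.82 for Insig1 (at least 1.87-fold over the wild type background as deposited, and at least 2.999-fold relative to the median gene), 1.44 ± 0.62 for Hmgcs1, 1.30 ± 0.90 for Cyp51, 1.26 ± 0.79 for Sqle, 1.07 ± 0.61 for Fdps, 1.01 ± 0.77 for Mvd, 0.49 ± 0.84 for Idi1 and 0.14 ± 0.65 for Fdft1, with a median of 1.16. None passed (smallest adjusted p = 0.719), at an unadjusted p of 0.05 also 0 passed, where 7.56% of all genes did, and 0.0146% of all tested genes were called. These p-values test the deposited difference. Hmgcs1 and Fdps passed without adjustment after quantile normalization and after centring on bright genes (2 of the 8, against 2.95% of all genes each time). After median centring 1 passed, Hmgcs1, where 3.18% of all genes did. None of the 8 was called in any of these settings. Before the array level is taken out, Idi1 and Fdft1 were dimmer in heterozygous than in wild type cells, and the other 6 were brighter, as 24.1% of all tested genes were; 4 of the 8, Hmgcs1, Fdps, Sqle and Cyp51, were brightest in heterozygous cells as deposited, against 12.7% of all. The second Mvd probe set, with a heterozygous signal below background, was at least 2.21-fold lower in heterozygous than in wild type cells relative to the median probe set (adjusted p = 0.648). The Fdft1 probe sets 1438918_at and 1438919_x_at, also below background in heterozygous cells, were at -1.15 and -1.60. Of the 15 probe sets tested, 12 lay above the median probe set.

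Setting both homozygous lines against the heterozygous and wild type arrays as 1 group left 0 of the 8 called, where 0.444% of all tested genes rose and 0.211% fell. Sqle (-1.11 ± 0.69, adjusted p = 0.601) and Idi1 (-1.02 ± 0.71, adjusted p = 0.663) were lowest, and Insig1 (0.80 ± 0.70) and Mvd (0.75 ± 0.67) highest. Sqle alone passed an unadjusted p of 0.05, which 7.83% of all tested genes did. The heterozygous array decided the direction of 3 genes in this fit: without it Hmgcs1 was at 0.36, Fdps at 0.56 and Cyp51 at 0.47, against -0.44, -0.05 and -0.25 with it.

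Each probe set was also tested by itself. Of the 20, 5 were below background on every array and did not pass the filter on dim signal, 4 were above background on 2 or 3 arrays and 11 on all 4. Among the 15 tested, 0 were called in homozygous against wild type cells (smallest adjusted p = 0.444), where 0.414% of all 27060 tested probe sets were. The probe sets of Hmgcs1 ran from -0.56 to 0.66 relative to the median probe set, those of Fdft1 from -2.00, on a probe set below background in ko1, to 0.56, and those of Mvd were at 1.32 and -0.69. The signs within these 3 genes were therefore mixed, and the direction of Hmgcs1, Fdft1 and Mvd against wild type cells was not settled by the array.

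**Figure D4:**
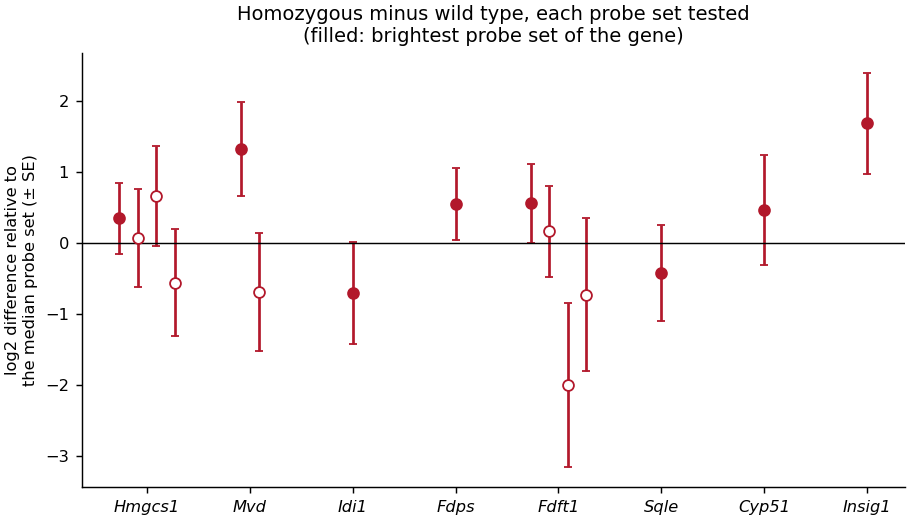
Log2 difference of homozygous minus wild type cells relative to the median probe set, with its SE, for the 15 probe sets tested; filled points are the brightest probe set of each gene. Hmgcs1, Mvd and Fdft1 have probe sets on both sides of 0, from -2.00 for a dim Fdft1 probe set that was below background in ko1 to 1.32 for the brighter Mvd probe set.

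The remaining enzymes of sterol synthesis on the array, 11 genes and all tested, showed no call either. Against wild type or against heterozygous cells 0 rose and 0 fell, where 1.02% and 0.757% of all genes were called. At an unadjusted p of 0.05, 2 passed against wild type (Mvk and Lbr, both dimmer in homozygous cells), where 11.9% of all genes did. Against heterozygous cells 2 passed (Ebp and Dhcr7, both brighter in homozygous cells), where 6.88% did. Lbr read 16.3 and 14.4 in ko1 and ko2, 16.2 in heterozygous and 38.1 in wild type cells. Dhcr7 read 7.88 and 23.4, with 2.65 in heterozygous cells, below background, and 10.7 in wild type cells. The median difference of homozygous cells over the 11 enzymes was 0.59 from wild type and 0.34 from heterozygous cells. Between heterozygous and wild type cells this median was -0.52, and 4 of the 11 lay above the median gene. Msmo1, a methylsterol oxidase, read 9.24 and 9.62 in ko1 and ko2, with 6.39 in heterozygous and 3.46 in wild type cells, both below background (at least 2.09-fold higher than in wild type relative to the median gene and 1.24-fold as deposited, adjusted p = 0.53). Mvk, mevalonate kinase, read 3.41 and 1.92, both below background, with 3.60 in heterozygous and 16.7 in wild type cells (at least 2.16-fold lower than in wild type relative to the median gene and 3.62-fold as deposited, adjusted p = 0.379). Ebp, a sterol isomerase, read 35.6 and 17.9, with 6.17 in heterozygous and 16.2 in wild type cells (1.37 ± 0.65 against wild type, adjusted p = 0.66, and at least 3.72-fold higher than in heterozygous cells, adjusted p = 0.27).

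Of 8 regulators of SREBP processing, 0 were called against wild type cells, and 0 passed an unadjusted p of 0.05. Of all genes, 1.02% and 11.9% did. Scap, the escort of SREBP, read 6.76 and 5.71 in ko1 and ko2, 9.16 in heterozygous and 1.37 in wild type cells, the last below background (at least 1.37-fold higher than in wild type relative to the median gene, with no bound above 1 as deposited, adjusted p = 0.482). Mbtps2, a protease that frees SREBP, read 4.73 and 6.44, with 4.64 in heterozygous and 3.46 in wild type cells, and was above background in ko2 alone. Ubxn8, a protein of endoplasmic reticulum degradation, read 1.09 and 6.40, with 2.87 in heterozygous and 13.1 in wild type cells, and was above background in ko2 and wild type cells alone. Of 6 genes of sterol uptake and transport, 0 were called and 1, Mylip, passed without adjustment, where 1.02% and 11.9% of all genes did. Mylip, a ubiquitin ligase that degrades lipoprotein receptors, read 11.3 and 11.7 in ko1 and ko2, above 4.63 in heterozygous and 2.16 in wild type cells, which were at background (at least 2.55-fold higher than in wild type relative to the median gene and 1.52-fold as deposited, adjusted p = 0.373). Npc2 and Stard4, a lysosomal and a cytosolic sterol carrier, were at 0.88 ± 0.55 and 0.87 ± 0.74.

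Of 4 genes of sterol efflux and storage on the array, 3 were tested, 0 called and 1, Abcg1, passed without adjustment, against the same 1.02% and 11.9% of all genes. Abca1, a sterol exporter, read 1.11 and 3.11 in ko1 and ko2, both at background, with 8.56 in heterozygous and 8.57 in wild type cells (at least 1.11-fold lower than in wild type relative to the median gene and 1.86-fold as deposited, adjusted p = 0.491). The exporter gene Abcg1, at 5.77 in ko1, was below background in ko2 and heterozygous cells and brightest in wild type cells. Nceh1, a cholesterol ester hydrolase, was above background in ko2 and wild type cells alone. Of 9 genes of the isoprenoid branch, 8 were tested, 0 called and 2, Fntb and Nus1, passed without adjustment, again against 1.02% and 11.9%. Fntb, a farnesyltransferase subunit, read 11.5 and 4.61 in ko1 and ko2, 7.80 in heterozygous and 39.5 in wild type cells (-1.58 ± 0.73, adjusted p = 0.121). Pdss2, of coenzyme Q synthesis, was above background in ko2 alone, and Nus1, of dolichol synthesis, read 5.46 and 1.26, both at background, with 8.51 in heterozygous and 15.1 in wild type cells (at least 1.96-fold lower than in wild type relative to the median gene and 3.28-fold as deposited, adjusted p = 0.382). Of 12 fatty acid genes that SREBP factors are known to activate, 0 were called and 4 passed without adjustment, where 1.02% and 11.9% of all genes did. Acss2, an acetyl-CoA synthetase, read 6.30 and 8.09 in ko1 and ko2, with 5.12 in heterozygous and 1.06 in wild type cells, both at background (at least 1.58-fold higher than in wild type relative to the median gene, with no bound above 1 as deposited, adjusted p = 0.438). Fads2, a desaturase, read 0.69 and 7.81, with 4.38 in heterozygous and 22.4 in wild type cells, and was below background in ko1 and heterozygous cells. Pnpla3, a lipid droplet protein, was above background in ko1 alone.

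**Figure D5:**
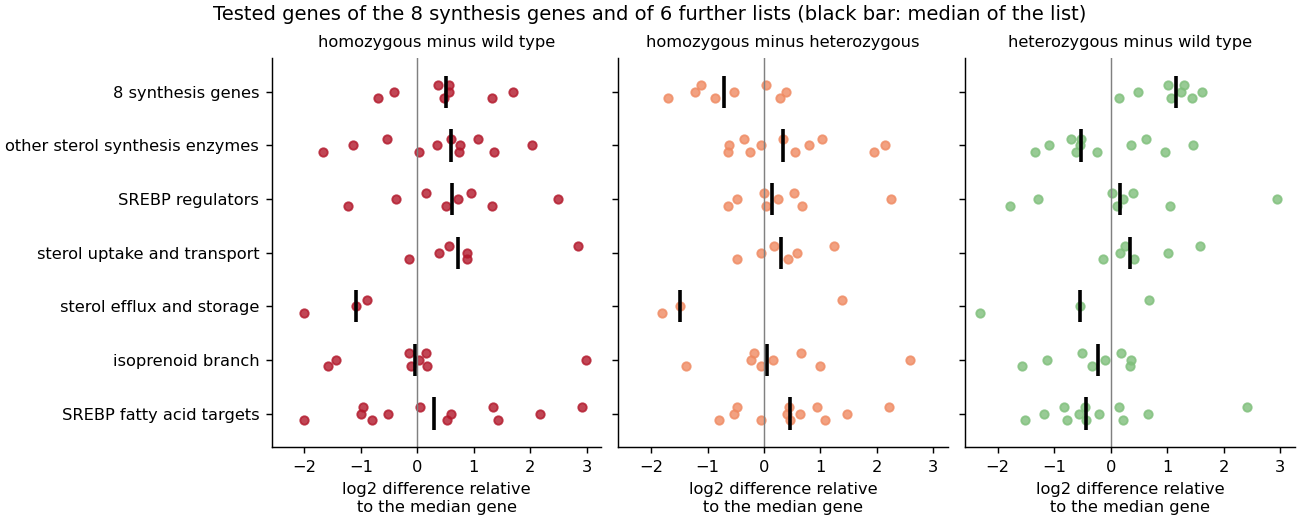
Log2 difference relative to the median gene for every tested gene (points) of the 8 genes and of 6 further lists in 3 comparisons, with the median of each list (black bar). For heterozygous minus wild type cells the 8 genes, each by its brightest probe set, lie from 0.14 to 1.63. The other sterol synthesis enzymes lie on both sides of 0 there, with a median of -0.52. Some dimmer probe sets of Mvd and Fdft1, not plotted, lie below 0 in the same comparison.

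Over the 4 arrays, the mean profile of the 8 genes, each centred on its own mean relative to the median gene, was -0.21 in ko1, 0.03 in ko2, 0.57 for the heterozygous line and -0.39 for wild type. Fdps (0.20), Cyp51 (0.29) and Hmgcs1 (0.47) lay closest to it by Euclidean distance in log2 units, and Insig1 (1.15), Sqle (1.03) and Idi1 (1.01) farthest. Among 13722 further genes, Mefv (0.08), Etfa (0.09) and Pdcl3 (0.10) were nearest, against a median distance of 1.52. The Mefv signal lay below background in ko1 (5.48) and in wild type cells (6.87). With 4 arrays, such closeness is a description of these cultures.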

How the data were processed

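Biotin-labelled cRNA from Trizol-extracted RNA of 4 mouse ES cell cultures was hybridised to Affymetrix arrays, 1 per culture, per the labels' protocols. The deposited signal intensities are linear values that the authors computed by MAS5, as the submitters' processing notes say; the sources used here do not give its version, scaling target or detection calls. A gene was represented by its brightest probe set with 1 symbol in the platform annotation (34958 of 45101; 932 had several, 9211 none). Genes (13730) with a mean signal over 2.55, the 40th percentile, were tested. Some listed pathway genes were not analysed here. The pseudocount, 0.675, was the 20th percentile of all values; differences on this scale understate changes of dim genes.

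limma 3.58.1 (R 4.3.3) fitted a mean per genotype, with an intensity trend and Benjamini-Hochberg adjustment over all tested genes. The 1 residual degree of freedom is the difference between ko1 and ko2 (47.6 with what limma borrows). The SEs therefore follow mostly the trend over all genes and little the spread of the gene itself. Idi1 lay 0.07 apart between ko1 and ko2 on the log2 scale, with an SE of 0.73 against wild type cells. Insig1 lay 1.05 apart, with an SE of 0.71. In the fit of 2 groups the variance came wholly from the trend. Nothing says that cultures were repeated, so p-values reflect only how these samples vary. An "at least" fold sets the dim side at background, without the pseudocount. The rule for names took all 8 genes with every probe set, the BAF250 genes, the nearest 3 genes by profile and, of each further list, called members and the 3 farthest from wild type cells. The genes and lists were chosen with earlier results of these data known. Alternatives were other pseudocounts, quantile normalization, centring, no filter, averaged probe sets, no trend and leaving out arrays.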

Additional observations from a re-analysis of the deposited data

How the results depend on the processing

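The count of 0 called among the 8 genes held in all 41 alternatives with a test, over 4 comparisons and the probe sets; the smallest adjusted p ranged from 0.366 to 0.806 for homozygous against wild type cells, from 0.486 to 0.715 against heterozygous cells, from 0.561 to 1 for heterozygous against wild type and from 0.346 to 1 in the fit of 2 groups. Of 320 single differences recomputed, 13 changed sign, none of them called, 2 of these without a test. With probe sets averaged, Fdft1 went to -0.63 against wild type, -0.19 against heterozygous, -0.44 for heterozygous minus wild type and -0.44 in the fit of 2 groups, where Fdps was at 0.32, and Mvd went to -0.98 for heterozygous minus wild type. Insig1 against heterozygous cells was at -0.0125 without the filter and at -0.0328 when arrays were centred on the 3594 genes above background throughout, an alternative chosen after seeing the data. The fit of 2 groups without the heterozygous array gave 0.36 for Hmgcs1, 0.56 for Fdps and 0.47 for Cyp51, and without the wild type array -1.12, -0.54 and -0.86. Without ko2, Hmgcs1 stood at -0.01, Cyp51 at 0.11 and Insig1 at 1.05 against wild type cells, and Insig1 at -0.59 against heterozygous cells, with no test possible since no residual degree of freedom was left; in the fit of 2 groups Insig1 was at 0.20 without ko2, against 0.80 with it.

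The number of all genes called moved more: for homozygous against wild type cells it was 140, and 203 with a pseudocount at the 40th percentile, 56 with a sixteenth (1/16) of the pseudocount, 50 after median centring, 44 without the filter, 33 after quantile normalization, 18 after centring on bright genes, 7 with probe sets averaged and 0 without the trend; against heterozygous cells it was 104, and 111 and 78 with the larger and smaller pseudocount, and 55, 48, 45, 20, 10 and 0 without the filter, after median centring, quantile normalization, centring on bright genes, averaging and without the trend. In the fit of 2 groups it was 90, and between 8 (no trend) and 232 (without the heterozygous array) otherwise; without ko1 it was 14 and without ko2 32. For heterozygous against wild type it was 2, and 0 under each alternative but the larger pseudocount (2). No paired analysis was possible because the heterozygous and wild type groups have 1 array each. Signal close to background limits Idi1, Sqle, Cyp51 and Insig1 most.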
